A study of Rattus norvegicus with 12 samples.

Results

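The genes of MHC class II antigen presentation were followed through the stages of a chemically induced rat liver cancer model. The 9 genes were the invariant chain Cd74, the class II chains RT1-Da, RT1-Db1, RT1-Ba and RT1-Bb, the peptide exchange chains RT1-DMa and RT1-DMb, the transcriptional co-activator Ciita, and the protease cathepsin S (Ctss). The measurements were all probe sets that the array's annotation gives to exactly 1 of these symbols, which made 15 of 31042 probe sets and 9 of 14217 genes. Of the 9 genes 5 had 1 probe set, RT1-Db1, RT1-Bb and Ciita had 2 each, and RT1-Ba had 4. No filter on low values was applied, so all 9 were tested.

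RNA of 12 tissue samples was measured on Affymetrix Rat 230 2.0 arrays, 3 per group. All rats were adult male Sprague-Dawley rats, an outbred stock with no engineered allele. The control group was injected with distilled water. The treated groups were injected intraperitoneally with 70 mg/kg diethylnitrosamine (DEN), a liver carcinogen, once per week, in a course given as 10 weeks. They were killed after week 5 (hepatitis), in weeks 13 to 14 (cirrhosis) and in weeks 23 to 24 (hepatocellular carcinoma, HCC). Counted from the first injection, week 5 falls within that course and the later times fall after it. Stage, DEN received and time since the last injection therefore differ together and cannot be told apart. The sources used here give no time of death for the controls. The tissue label is liver throughout, while the series description calls the HCC samples tumour tissue. Whether the arrays of a group came from different rats is unstated, so the p-values cover just the spread among these samples, which may be technical.

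MHC class II molecules are pairs of an alpha and a beta chain that carry peptides from taken-up proteins to the cell surface, where CD4 T cells read them. In the rat they are RT1-D, made of RT1-Da and RT1-Db1, and RT1-B, made of RT1-Ba and RT1-Bb. Cd74 occupies the groove of the newly made pair, Ctss trims Cd74 in endosomes, RT1-DM exchanges the remaining fragment for a peptide, and Ciita switches the whole gene group on, strongly after interferon gamma. In liver the products are carried mainly by Kupffer cells, other macrophages, dendritic cells and B cells, and to a lesser degree by sinusoidal endothelium, while hepatocytes have little of them at rest. In whole tissue, more cells of a type and more RNA per cell cannot be told apart.

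The array medians lay between 28.7 and 30.9 intensity units and 33.9% to 35.8% of the values on an array were under 16. The labels held up against marker genes. All 7 tumour markers rose and 7 of 11 hepatocyte genes fell in HCC against control, where 38.8% of all genes were called. The counts were 6 of 7 and 6 of 11 without the third control array, described next. The HCC arrays also stood apart in a sign of RNA quality, the log2 difference between the 3' and 5' probe sets of Gapdh, which was 1.36, 2.46 and 3.20 on the HCC arrays and 0.38 to 1.03 on the other arrays. The median spread between replicates was 0.21 log2 units (SD) in HCC, against 0.07 to 0.10 in the other groups. The role of RNA quality in the HCC values below was not tested.

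In control replicate 3 all 9 members were at least 2-fold above both other controls, measured on log2(intensity + 16), the scale of all differences here. Over all genes 110 of 14217, 0.774%, were that high on this array, and 8 were that much lower. The chains RT1-Ba, RT1-Db1, Cd74, RT1-Da and RT1-Bb stood at ranks 3 to 7 of all genes by this gap, behind Gbp2 and Ubd, an interferon-induced GTPase and an interferon-induced ubiquitin-like protein. Ciita stood at rank 9, RT1-DMb at 23, RT1-DMa at 32 and Ctss at 41. The labels give nothing that separates this control from the others. The array was singled out after its values were seen, so the members' results against control are given with and without it.

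Cd74 encodes the invariant chain, the chaperone of every class II pair. Its probe set read 554, 511 and 2955 in controls 1 to 3, 2392, 1949 and 1578 in hepatitis, 1662, 1518 and 1831 in cirrhosis, and 3152, 1594 and 2309 in HCC. All 9 arrays of treated rats lay above controls 1 and 2, and only HCC replicate 1 lay above control replicate 3. The difference from control was 1.03 ± 0.56 (SE) in hepatitis, 0.80 ± 0.56 in cirrhosis and 1.24 ± 0.56 in HCC, and none passed the test with all arrays (limma, adjusted p = 0.4084, 0.5844 and 0.11).

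RT1-Da, the alpha chain of RT1-D, had the same order of arrays at the top and bottom as Cd74. Its intensity was 477, 427 and 2555 in the controls, 2395, 1831 and 1591 in hepatitis, 1612, 1550 and 1671 in cirrhosis, and 2909, 1157 and 1532 in HCC. The 3 cirrhosis arrays lay within 1.08-fold of each other, and control replicate 3 lay 5.66-fold above the mean of the other controls. RT1-Db1, the partner beta chain, read 234, 189 and 1402 in the controls, 899, 849 and 704 in hepatitis, 682, 575 and 673 in cirrhosis, and 1522, 666 and 1157 in HCC on its bright probe set. Every hepatitis array was above every cirrhosis array, but the difference between these stages did not pass the test (-0.33 ± 0.61, limma adjusted p = 0.9616). The second RT1-Db1 probe set was dim on all arrays, at 5.82 to 37.9.

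**Figure D1:**
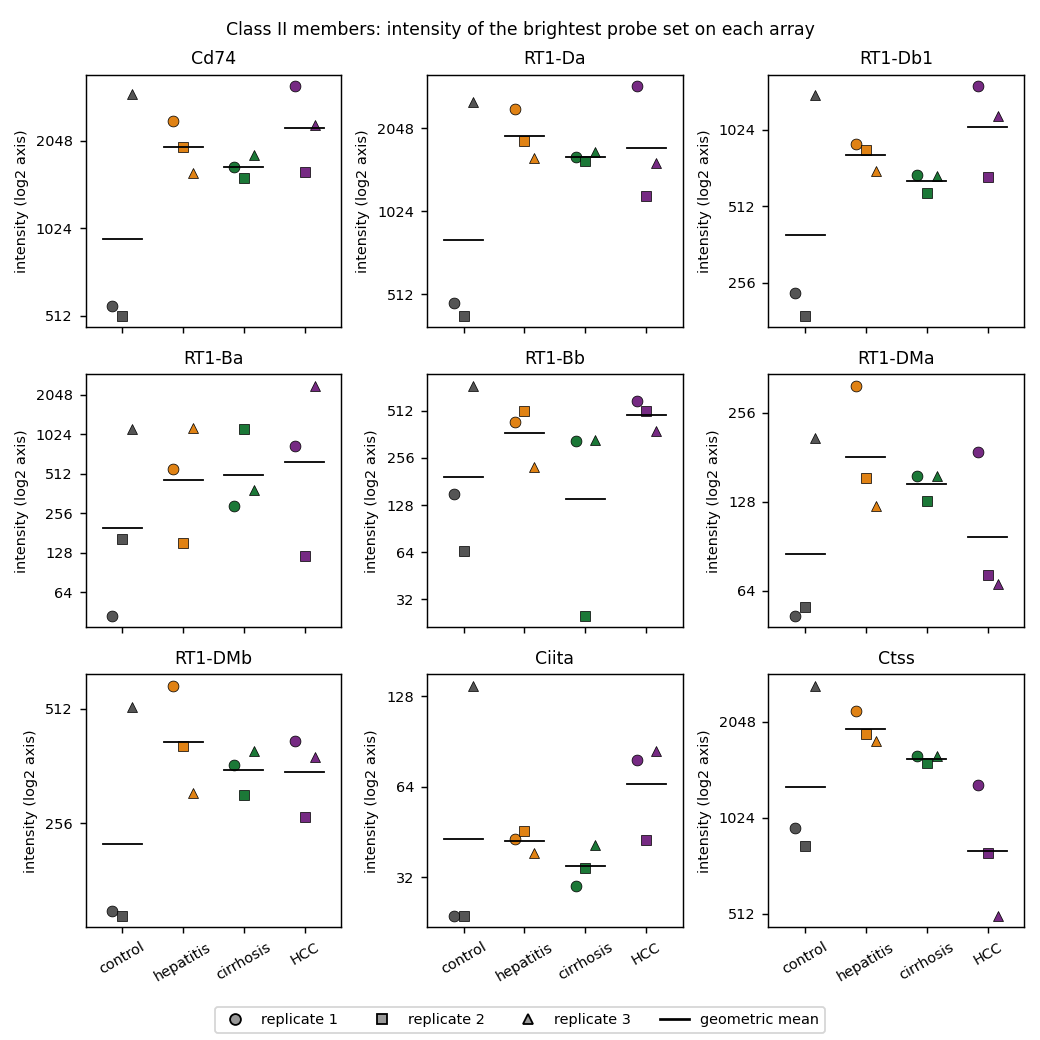
Intensity of the brightest probe set of each of the 9 genes (log2 axis) on the 3 arrays of each group, with symbols for the replicate number and a bar at the geometric mean. Control replicate 3 (grey triangle) lies at least 2-fold above the other controls for all 9 genes, and Ctss is lower on all HCC arrays than on all hepatitis arrays.

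RT1-DMa and RT1-DMb encode the pair that loads peptide onto class II. RT1-DMb read 151, 146 and 519 in the controls, 587, 409 and 307 in hepatitis, 364, 303 and 397 in cirrhosis, and 421, 266 and 381 in HCC. RT1-DMa read 52.5, 56.3 and 210.4 in the controls, 315.2, 154.1 and 124 in hepatitis, 156, 129 and 156 in cirrhosis, and 189, 72.3 and 67.2 in HCC. The highest array of both was hepatitis replicate 1, and the lowest were controls 1 and 2. On the HCC arrays the pair did not move alike, since 2 of the 3 HCC arrays read RT1-DMa below every hepatitis and cirrhosis array, while RT1-DMb in HCC spanned the cirrhosis values. The difference HCC against cirrhosis was -0.50 ± 0.51 for RT1-DMa and -0.01 ± 0.43 for RT1-DMb, neither past the test (limma adjusted p = 0.4842 and 0.9889).

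Ciita, the co-activator that class II promoters need, was dim. Its brighter probe set read 23.8, 23.8 and 138.7 in the controls, 42.8, 45.7 and 38.4 in hepatitis, 29.9, 34.4 and 40.9 in cirrhosis, and 78.5, 42.7 and 84.2 in HCC. The other Ciita probe set put the same 4 arrays in front, at 71.8 in control replicate 3, 63.0 and 59.9 in HCC replicates 1 and 3, and 46.0 in hepatitis replicate 2. Both Ciita probe sets therefore had control replicate 3 as their highest array. Every HCC array was above every cirrhosis array on the brighter probe set, with a difference of 0.69 ± 0.45 (limma adjusted p = 0.2635 with all arrays).

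Ctss, the endosomal protease that cuts the invariant chain, had its lowest group mean in HCC, unlike the chains. It read 952, 837 and 2655 in the controls, 2212, 1880 and 1781 in hepatitis, 1598, 1522 and 1598 in cirrhosis, and 1303, 796 and 505 in HCC. The 3 HCC values lay below all hepatitis and all cirrhosis values, and the cirrhosis values lay below all hepatitis values. HCC fell below hepatitis by 1.26 ± 0.42 on the log2 scale, a ratio of 0.419 (limma adjusted p = 0.04225), the 1 call among the 9 genes in any comparison with all arrays. That call was lost with a pseudocount of 64 (-1.20, adjusted p = 0.05182), with quantile normalization (-0.96, adjusted p = 0.09701), with only these groups in the fit (adjusted p = 0.0612), with array weights (-1.37, adjusted p = 0.119) and when any of 8 of the 9 arrays of treated rats was left out, of which HCC replicate 3 gave -0.93 (adjusted p = 0.142).

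The promoters of the class II genes share a known layout, an X box and a Y box at a set distance, on which the RFX complex, CREB and NF-Y assemble before Ciita joins them. RefSeq promoters on the GRCr8 build were matched for 7 of the 9 genes, each 250 bases before and 50 after the start site, and the stretch holding both boxes is printed for 6 of them because this layout is what ties these genes to Ciita. In the lines below capitals mark the X box letters, then the Y box letters, 5' to 3' on the gene's strand, all upstream of the start site.
RT1-Da: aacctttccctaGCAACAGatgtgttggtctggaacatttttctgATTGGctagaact
RT1-Db1: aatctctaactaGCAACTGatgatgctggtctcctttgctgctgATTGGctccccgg
RT1-Ba: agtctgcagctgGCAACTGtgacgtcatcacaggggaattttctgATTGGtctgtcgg
RT1-Bb: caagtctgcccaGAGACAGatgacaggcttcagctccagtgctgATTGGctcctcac
RT1-DMa: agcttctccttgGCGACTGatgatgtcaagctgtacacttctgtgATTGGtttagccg
Cd74: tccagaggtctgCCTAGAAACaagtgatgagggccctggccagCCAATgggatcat

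On GRCr8 these stretches are chr20:4515321-4515378 on the plus strand for RT1-Da, chr20:4560230-4560286 on the minus strand for RT1-Db1, chr20:4576969-4577026 on the plus strand for RT1-Ba, chr20:4604167-4604223 on the minus strand for RT1-Bb, chr20:4712387-4712444 on the minus strand for RT1-DMa and chr18:56526974-56527029 on the plus strand for Cd74. The 5 genes on chromosome 20 lie within the RT1 complex, as does RT1-DMb, while Ciita is on chromosome 10 and Ctss on chromosome 2. From the first base of the X box to the first base of the Y box there were 32 bases in RT1-Db1 and RT1-Bb and 33 in RT1-Da, RT1-Ba and RT1-DMa. Cd74 holds its Y box on the other strand (CCAAT, the reverse complement of ATTGG), 31 bases on. The Y box letters ATTGG, searched on both strands, were in all 7 promoters and in 37.5% of 33469 promoters of the table. The X box letters CNNAGNAAC were in 2 of the 7, RT1-Da and Cd74, against 17.5% of the table, and with a Y box 20 to 40 bases on, on the same strand, in RT1-Da alone, against 0.424%. The shorter letters GNNACNG were chosen after these sequences were seen. They were in all 7 promoters and 88.1% of the table, and followed by ATTGG at 20 to 40 bases in 5 of the 7, against 3.7% of the table. Matching letters are a description of the sequence and no measure of factor binding.

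With all 12 arrays, 0 of the 9 members passed the test against control in hepatitis (4.0% of all genes called), in cirrhosis (3.33%) and in HCC (38.8%), by limma with Benjamini-Hochberg adjustment over all genes. At an unadjusted p under 0.05 the counts were also 0 of 9 in each. The lowest unadjusted p values were 0.06644 for RT1-Da in hepatitis, 0.1302 for RT1-Da in cirrhosis and 0.05184 for RT1-Db1 in HCC. The median log2 difference over the members was 0.94 in hepatitis, 0.65 in cirrhosis and 1.08 in HCC, where the median over all genes was between 0.00 and 0.01 in size, and 8, 7 and 8 of the 9 differences were above 0. In the test of any difference among the 4 groups 0 of 9 passed (40.4% of all genes called), with adjusted p from 0.1325 for Ctss to 0.7635 for RT1-Ba, and 0 of 9 at an unadjusted p under 0.05.

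Leaving out control replicate 3 changed this. In hepatitis 4 of the 9 members then rose, where 1.51% of all genes were called higher. They were Cd74 (1.84 ± 0.26, adjusted p = 0.009944), RT1-Db1 (1.87 ± 0.29, adjusted p = 0.01312), RT1-Da (2.04 ± 0.33, adjusted p = 0.01479) and RT1-DMb (1.41 ± 0.26, adjusted p = 0.02726), all from limma. In cirrhosis 3 of the 9 rose (0.795% of all genes called higher), namely Cd74 by 1.62 ± 0.26, RT1-Da by 1.80 ± 0.33 and RT1-Db1 by 1.54 ± 0.29. In HCC 5 of the 9 rose (16.5% of all genes called higher), with RT1-Db1 at 2.24 ± 0.29, Cd74 at 2.06 ± 0.26, RT1-Da at 1.90 ± 0.33, RT1-DMb at 1.15 ± 0.26 and Ciita at 1.05 ± 0.21. These folds of 2.07 to 4.73 in HCC rest on 2 control arrays. Since the array left out was the highest control, leaving it out moves every difference from control upward by construction.

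Without that array all 3 arrays of the stage lay above both controls for 8 of the 9 members in hepatitis (21.9% of all genes), 8 of 9 in cirrhosis (25.1%) and 7 of 9 in HCC (28.3%). The exceptions were RT1-Ba in hepatitis, RT1-Bb in cirrhosis, and RT1-Ba and Ctss in HCC. The median over the members was then 1.73 in hepatitis, 1.21 in cirrhosis and 1.90 in HCC, while the median over all genes stayed between 0.00 and 0.01 in size. Ctss in HCC was the 1 member with a difference under 0, at -0.14 ± 0.31. RT1-Ba and RT1-Bb had the widest errors, up to 1.24 log2 units, and did not pass in any stage.

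**Figure D2:**
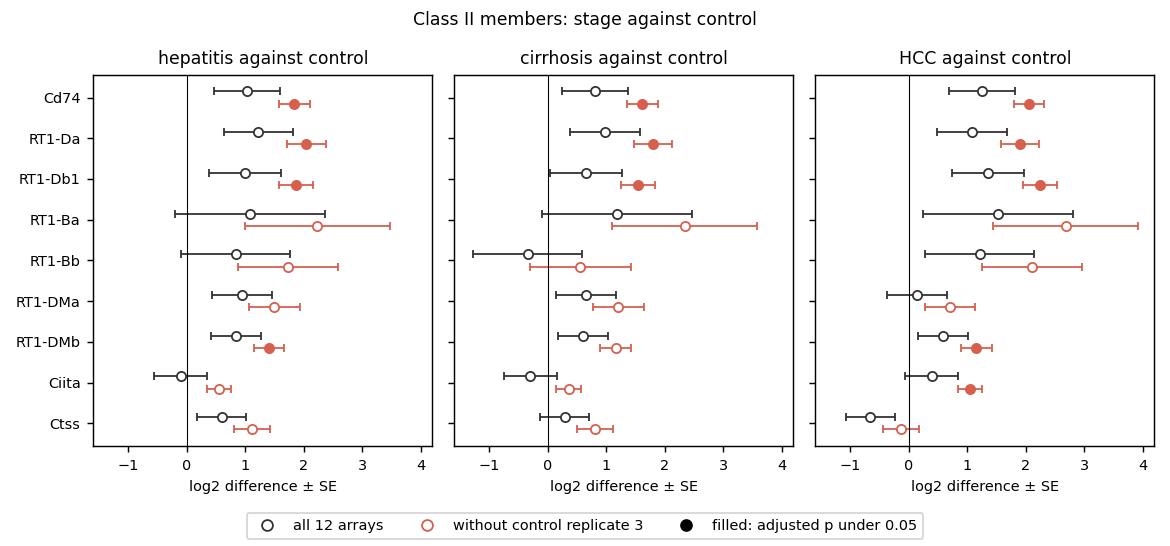
Log2 difference from control with its standard error for each gene in hepatitis, cirrhosis and HCC, with all 12 arrays (dark) and without control replicate 3 (red), filled where the adjusted p was under 0.05. No dark point is filled, while 4, 3 and 5 red points are, and the red bars are shorter for Cd74, RT1-Da and RT1-Db1.

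Comparisons among the 3 DEN stages do not use the controls as a group. Cirrhosis against hepatitis gave 0 of 9 calls (0.957% of all genes called) and 0 at an unadjusted p under 0.05, with 8 of the 9 differences under 0 and a median of -0.24. HCC against cirrhosis gave 0 of 9 (37.1% called) and 1 at an unadjusted p under 0.05, Ctss. The widest of these differences on the brightest probe sets was that of RT1-Bb in HCC against cirrhosis, 1.56 ± 0.93 (limma adjusted p = 0.2223). All HCC arrays lay above all cirrhosis arrays there. The other RT1-Bb probe set, 1371065_at, gave -1.25 ± 1.02 for HCC against cirrhosis, with overlapping arrays. The RT1-Ba probe sets 1381593_x_at and 1392334_at gave wider differences, 2.22 ± 0.87 and 2.12 ± 0.89, which did not pass (limma adjusted p = 0.07982 and 0.1005). HCC against hepatitis gave the 1 call named above, Ctss (35.0% called). Control replicate 3 reaches these comparisons through the shared estimate of spread. Without it HCC against cirrhosis had 2 limma calls (35.6% of all genes), Ciita higher by 0.69 (adjusted p = 0.01798) and Ctss, which fell by 0.95 (adjusted p = 0.02576). The Ciita call rests on the brighter probe set. The other, 1369214_a_at, gave 0.30 ± 0.22 for HCC against cirrhosis with all arrays, and the arrays of these groups overlapped.

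RT1-Ba and RT1-Bb, the chains of RT1-B, gave readings that depended on the probe set. The RT1-Ba probe set 1370822_at read 145, 171 and 1193 in the controls, 1112, 783 and 449 in hepatitis, 611, 309 and 714 in cirrhosis, and 663, 377 and 344 in HCC, an order much like that of RT1-Da. The brightest one, 1377334_at, read 42.1, 163.5 and 1119 in the controls, 557, 151 and 1140 in hepatitis, 288, 1127 and 382 in cirrhosis, and 840, 121 and 2390 in HCC. Within each of the 3 DEN stages its replicates differed by 3.91-fold to 19.7-fold, and all 4 groups overlapped.

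A further pair of RT1-Ba probe sets, 1392334_at and 1381593_x_at, had another pattern and nearly equal values on every array. On 1392334_at the intensity was 471, 329 and 2180 in the controls, 141, 648 and 715 in hepatitis, 150, 129 and 139 in cirrhosis, and 1697, 760 and 212 in HCC. All 3 cirrhosis arrays, hepatitis replicate 1 and HCC replicate 3 were low, and the lowest array above them was control replicate 2. On these sets RT1-Ba in cirrhosis was therefore below every control, whereas on 1370822_at it was above controls 1 and 2.

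RT1-Bb showed the same disagreement. On 1371033_at it read 151, 65.1 and 739 in the controls, 438, 511 and 226 in hepatitis, 328, 25.0 and 336 in cirrhosis, and 593, 509 and 379 in HCC. On 1371065_at it read 17.0, 64.6 and 14.1 in the controls, 350, 38.5 and 25.9 in hepatitis, 201, 237 and 248 in cirrhosis, and 455, 15.4 and 56.7 in HCC. Control replicate 3 was thus the highest of the 12 arrays on the first and the lowest on the second, and cirrhosis replicate 2 was the lowest on the first while all cirrhosis arrays were high on the second. Over the 12 arrays the pair had r = -0.10 (Pearson, log2 scale, as a description).

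**Figure D3:**
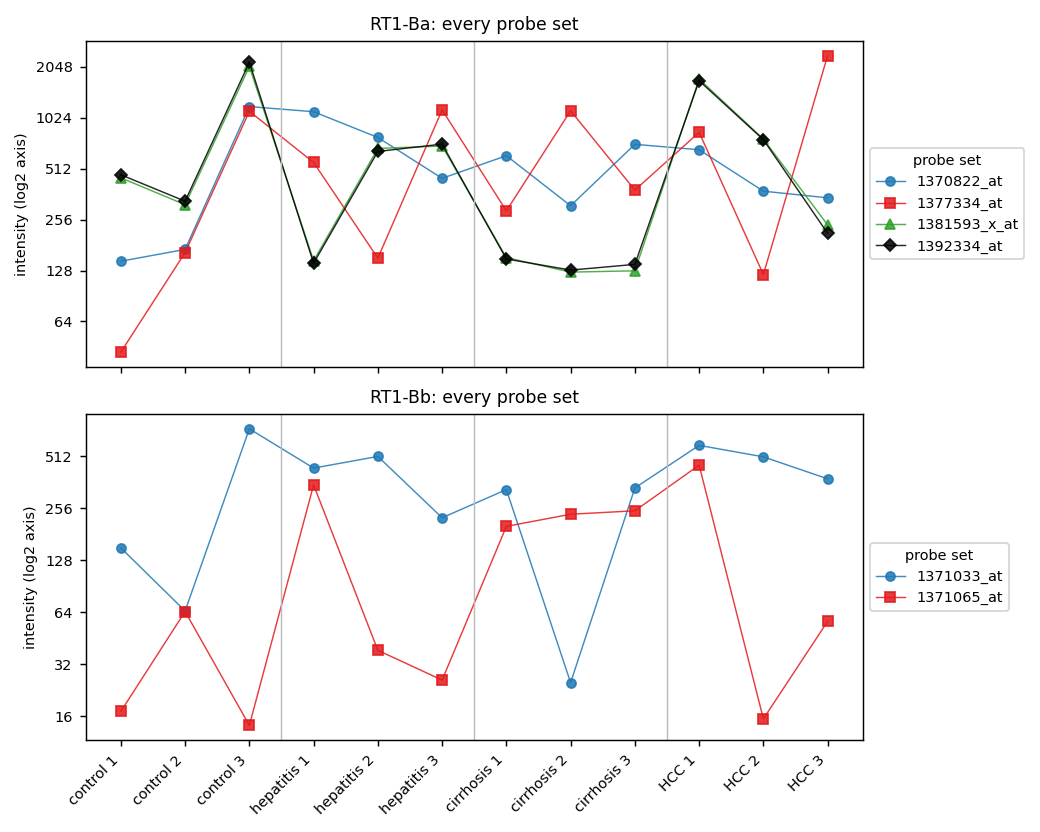
Intensity (log2 axis) of every probe set of RT1-Ba (upper panel) and RT1-Bb (lower panel) on each of the 12 arrays, with grey lines between groups. The lines of 1 gene cross between arrays, except for 1381593_x_at and 1392334_at, which overlie each other, and 1371065_at is at 201 to 248 on the cirrhosis arrays.

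Some class I genes of the same complex moved with these RT1-B probe sets, which were chosen for this after their values were seen. RT1-CE10, a class I heavy chain gene, read 1033, 630 and 1692 in the controls, 97.5, 767 and 945 in hepatitis, 143, 96.6 and 111 in cirrhosis, and 784, 578 and 66.2 in HCC. The 5 arrays low for RT1-CE10 were the 5 arrays low for 1392334_at. With the members left out, RT1-CE10 was second of all genes by likeness to that probe set (r = 0.88, rho = 0.79, 12 arrays), behind Nuak2 on chromosome 13 (r = 0.89). RT1-T24-4, another class I gene, read 32.6, 539 and 148 in the controls, 743, 197 and 206 in hepatitis, 806, 858 and 793 in cirrhosis, and 680, 154 and 376 in HCC. Its likeness to 1371065_at was r = 0.86. It stood behind Cd24 (r = 0.94), Igfbp7 (0.93), Hscb (0.91), Colec12 (0.91), Zc2hc1a (0.90) and Tjp1 (0.90), none of them an RT1 gene. Cd24 is in the list of cholangiocyte and ductular cell markers used here. RT1 genes are known to be highly polymorphic between rat strains. No genotype of these rats is known here, and the part of sequence differences in these readings was not tested.

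In the fit of all 31042 probe sets, 0 of the 15 were called with all arrays in hepatitis against control (2.95% of probe sets called), cirrhosis against control (3.62%), HCC against control (29.8%), cirrhosis against hepatitis (0.651%), HCC against cirrhosis (32.2%) and HCC against hepatitis (29.0%). At an unadjusted p under 0.05 limma gave 0, 3, 0, 0, 2 and 1 of the 15. Without control replicate 3 the probe set 1370822_at of RT1-Ba differed from control by 2.11 ± 0.45 in hepatitis, 1.61 ± 0.45 in cirrhosis and 1.40 ± 0.45 in HCC (limma adjusted p = 0.05599, 0.1188 and 0.05509). None passed, though the sizes in hepatitis and cirrhosis were near those of RT1-Da. On 1392334_at the cirrhosis difference had the other sign, -1.40 ± 0.85 (adjusted p = 0.5156).

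The upstream partners of Ciita at the class II promoter were measured as a list of 9 genes. In HCC against control 3 rose and 1 fell, 4 of 9 where 38.8% of all genes were called, so the share is near that of all genes. Rfx5, a subunit of the RFX complex that binds the X box, read 434, 296 and 370 in HCC, against 126, 118 and 137 in the controls, a difference of 1.41 ± 0.14 (limma adjusted p = 9.941e-05). The acetyltransferase Ep300 rose by 1.23 ± 0.13 and the Y box subunit Nfya by 0.49 ± 0.13, while the Y box subunit Nfyc fell by 0.41 on the log2 scale. Groups did not overlap for these 4 genes. The same 3 genes rose without control replicate 3, and Nfyc no longer passed. In hepatitis and in cirrhosis against control limma called 0 of the 9 (4.0% and 3.33% of all genes called), and 0 and 2 at an unadjusted p under 0.05. In control replicate 3 none of the 9 was 2-fold above the other controls, unlike Ciita.

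Interferon gamma is the main known inducer of Ciita, and 13 of 15 listed genes of its pathway were measured. Ifng itself read 3.88 to 5.74 on all 12 arrays, among the dimmest values. In control replicate 3 the targets Gbp2, Gbp4, Irf1 and Cxcl9, 4 of the 13, were at least 2-fold above both other controls (0.774% of all genes). Gbp2 read 583 on that array, against 59.2 and 59.2 on the other controls. Irf1, a transcription factor that acts on a Ciita promoter, read 471 there, against 158 and 112. In HCC against control 1 of 13 rose with all arrays, Irf8 (1.00 ± 0.22, limma adjusted p = 0.005564), where 38.8% of all genes were called. In hepatitis and cirrhosis 0 of 13 passed (4.0% and 3.33% of all genes called), and 2 and 1 had an unadjusted p under 0.05 (limma). Without control replicate 3 the count was 2 in hepatitis and 2 in cirrhosis, Cxcl9 and Irf8 each time (1.51% and 0.795% of all genes called higher). In HCC it was 5 (16.5% of all genes called higher), which were Gbp4, Irf8, Gbp2, Cxcl9 and Irf1 at 1.01 to 1.65 log2 units.

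Markers of cells that can carry class II were measured beside the members. Of 17 macrophage and Kupffer cell markers 9 were at least 2-fold above both other controls in control replicate 3, where 0.774% of all genes were that high. Among the 9 were Csf1r (772, against 252 and 239) and Adgre1 (209, against 69.1 and 57.9). The mean level of the 17 markers was 9.31 on that array, against 8.20 and 8.33 on the other controls (log2 scale). Of 12 general leukocyte genes 4 were that high, of 9 dendritic cell markers 1, of 16 T and NK cell markers 1, and of 10 B and plasma cell markers 0. None of the hepatocyte, endothelial and cholangiocyte markers was. The part of cell numbers in the class II level of this array was not tested.

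In HCC with all arrays 7 of the 17 macrophage markers fell against control and 1 rose (38.8% of all genes called), while 0 of the 9 members were called. Among those that fell were Clec4f at -2.43 ± 0.37, Cd5l at -2.33 ± 0.42, C1qb at -2.04 ± 0.49 and Cd163 at -1.96 ± 0.29, which are Kupffer cell or tissue macrophage genes. The 1 that rose was Lyz2, a lysozyme of myeloid cells (1.18 ± 0.39). When control replicate 3 was left out, 6 of the 17 fell and 3 rose, Lyz2, Fcer1g and Tyrobp (33% of all genes called). In hepatitis 3 then rose (1.51% of all genes called higher), Cd68 (1.39 ± 0.26), Fcer1g (1.23 ± 0.23) and Tyrobp (1.16 ± 0.17). Clec4f read 139, 544 and 318 in HCC, against 1642, 1342 and 1998 in the controls. For 7 of the 17 markers all HCC arrays lay below all other 9 arrays, and this held for 0 of the 9 members. The share of all genes with this order was not counted, so neither count can be called unusual. The mean of the marker list was 7.62 to 8.03 in HCC, against 8.20 to 9.31 in the controls, and that of the members was 8.50 to 9.57 in HCC, against 7.55 to 9.84 in the controls. The difference between these changes was not tested.

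Of 9 measured dendritic cell markers 4 rose and 0 fell in HCC against control with all arrays, where 38.8% of all genes were called in either direction. They were Itgax (1.36 ± 0.18), Clec10a (1.08 ± 0.27), Itgae (0.52 ± 0.11) and Ccl17 (0.40 ± 0.08). Itgax, an integrin of dendritic cells and of some macrophages, read 119, 56.6 and 82.0 in HCC, against 21.5, 19.0 and 26.9 in the controls, and so was not high in control replicate 3. Without that array 5 of the 9 rose in HCC (16.5% of all genes called higher), with Clec9a as the fifth (0.82 ± 0.11). Clec9a then rose also in hepatitis (0.76 ± 0.11) and cirrhosis (0.77 ± 0.11), where 1.51% and 0.795% of all genes were called higher. Of 10 B and plasma cell markers Jchain alone rose in HCC (1.85 ± 0.38), where 38.8% of all genes were called in either direction. Jchain rose also in hepatitis (2.05 ± 0.38, with Mzb1 at 0.83 ± 0.14) and cirrhosis (2.58 ± 0.38), where 4.0% and 3.33% of all genes were called. Without control replicate 3 Jchain passed in cirrhosis (0.795% of all genes called higher) and HCC (16.5%), and no longer in hepatitis (1.51%). The B cell marker Ms4a1 read 27.0 to 39.1 over all arrays and Cd79b 6.30 to 14.1. For 3 of the 10 markers, Cd79b among them, all HCC arrays lay below all controls, and for 1 they lay above. In HCC against hepatitis 5 of the 10 fell and 0 rose, where 35.0% of all genes were called in either direction. Of 16 T and NK cell markers 8 rose and 0 fell in HCC (38.8% of all genes called in either direction), led by Cd3g (1.60 ± 0.30) and Cd3e (0.80 ± 0.20). Without control replicate 3 the count was 6 (16.5% of all genes called higher). With all arrays 10 of the 16 differences were above 0, and for 2, Cd4 and Gzmb, all HCC arrays lay below all controls. Cd4 read 22.1, 22.7 and 20.5 in HCC, against 24.3, 23.2 and 27.9 in the controls. Of 9 sinusoidal endothelial markers 8 fell in HCC with and without control replicate 3, where 18.7% and 16.6% of all genes were called lower. Pecam1, the ninth, read 92.9, 130.4 and 119 in HCC, against 105, 99.0 and 121 in the controls.

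**Figure D4:**
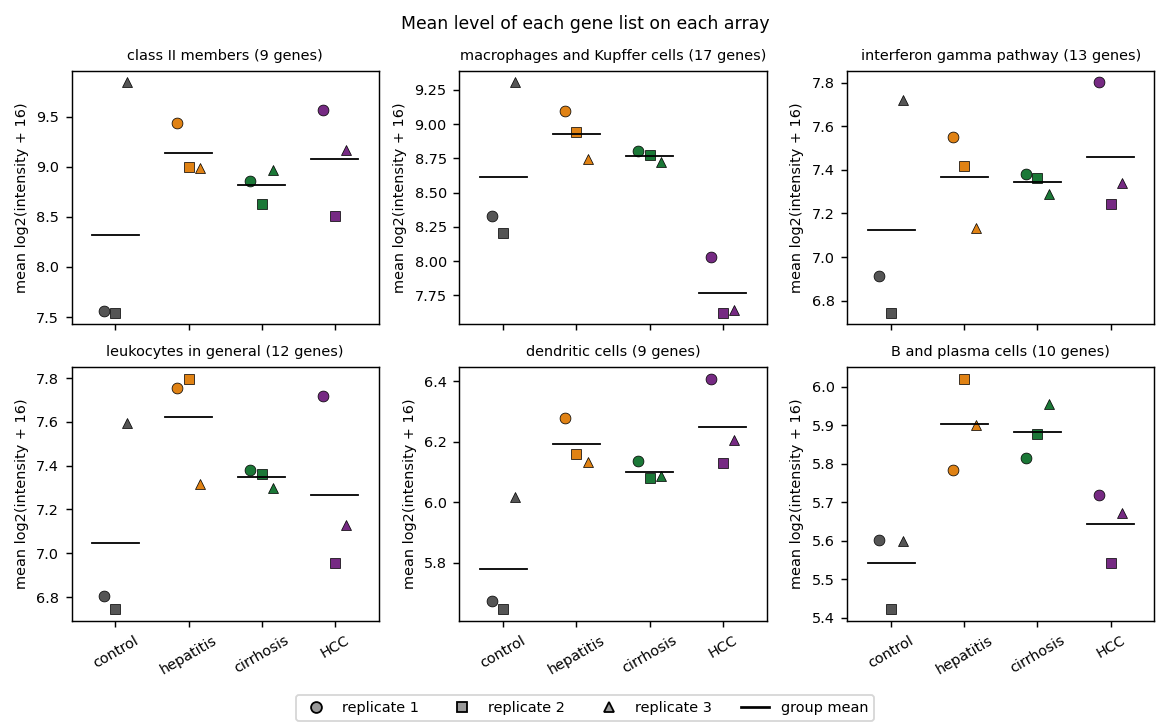
Mean log2(intensity + 16) of the 9 class II members and of 5 gene lists on each array, with replicate symbols and a bar at the group mean, each panel on its own axis. Class II members and macrophage markers are both high in control replicate 3, at 9.84 and 9.31, and the macrophage markers are lowest in HCC, at 7.62 to 8.03, where the class II members are at 8.50 to 9.57.

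The endosomal side of the pathway was followed in 12 genes of lysosomal antigen processing beside Ctss. In HCC against control Ctsd (-1.05 ± 0.32) and Ctsh (-0.90 ± 0.27), both cathepsins, fell and the membrane protein Lamp1 rose (0.30 ± 0.07), 3 of 12 where 38.8% of all genes were called. In HCC against hepatitis 5 fell and 1 rose (35.0% of all genes called), with Ctsh at -1.16 ± 0.27, Ctsd at -1.15 ± 0.32, the cathepsin inhibitor Cst3 at -0.71 ± 0.18 and Ctsl at -0.62 ± 0.17, beside the fall of Ctss there. The thiol reductase Ifi30, which opens disulphide bonds of antigens, read 2476, 1141 and 2095 in HCC, against 1043, 967 and 1497 in the controls, and did not pass. Without control replicate 3 Ctsd and Ctsh no longer passed against control, while Lamp1 (0.33 ± 0.08) and Ifi30 (0.84 ± 0.27) rose. These were 2 of the 12, a share near the 16.5% of all genes called higher there. Limma called 0 of the 12 in hepatitis and in cirrhosis against control with all arrays (4.0% and 3.33% of all genes called). At an unadjusted p under 0.05 the counts were 3 and 1.

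Of 13 further genes of class II chains, turnover and co-stimulation 7 were measured. Marchf1, a ubiquitin ligase that removes class II from the surface, read 121 in control replicate 3, against 28.7 and 42.5 in the other controls. In HCC against control 1 of the 7 was called (38.8% of all genes), the co-stimulatory receptor Cd40, which rose (0.44 ± 0.15, limma adjusted p = 0.04203). In HCC against hepatitis 1 of the 7 was called (35.0% of all genes), the co-stimulatory ligand Cd86, which was lower in HCC (-0.69 ± 0.18, limma adjusted p = 0.0132). Leaving out control replicate 3 gave a call for Cd86 in hepatitis against control (0.95 ± 0.14, limma adjusted p = 0.01114), where 1.51% of all genes were called higher. In HCC against control Cd83 (0.69 ± 0.19) and Cd40 (0.54 ± 0.17) then rose (16.5% of all genes called higher). For class I presentation, the sister pathway for peptides made inside the cell, 23 of 31 genes were measured. In control replicate 3 the transporter subunit Tap1 and the immunoproteasome subunits Psmb8 and Psmb9 were at least 2-fold above both other controls. They were 3 of the 23, where 0.774% of all genes were that high. With all arrays limma called 0 of the 23 in hepatitis and in cirrhosis against control (4.0% and 3.33% of all genes called). At an unadjusted p under 0.05 the counts were 2 and 7. In HCC against control 2 of the 23 rose and 1 fell, where 38.8% of all genes were called. The transporter subunit Tap2 (0.48 ± 0.17) and the loading factor Pdia3 (0.48 ± 0.16) rose, and the class I gene RT1-S3 fell by 1.36 ± 0.28 on the log2 scale. Without control replicate 3 the count in HCC was 7 higher and 1 lower of the 23, a share near the 33% of all genes called there. Psmb8 at 1.10 ± 0.29, Psmb9 at 0.99 ± 0.16 and Tap1 at 0.87 ± 0.20 were in front of those that rose, and Pdia3 no longer passed. Psmb9 then rose also in hepatitis (0.73 ± 0.16), where 1.51% of all genes were called higher. Psmb8 (1.52 ± 0.29) and Psmb9 (1.01 ± 0.16) rose in cirrhosis, where 0.795% of all genes were called higher.

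The genes most like the class II chains over the 12 arrays were named by Pearson's r with the mean log2 level of Cd74, RT1-Da, RT1-Db1, RT1-Ba and RT1-Bb. They were Arhgef2 (r = 0.95, rho = 0.92), Hcls1 (r = 0.94, rho = 0.83), Inpp5d (r = 0.94, rho = 0.81), Kctd12 (r = 0.92, rho = 0.75), Fcer1g (r = 0.91, rho = 0.83) and Acvrl1 (r = 0.91, rho = 0.78). Hcls1, Inpp5d and Fcer1g are genes of blood cells. Fcer1g, the common gamma chain of Fc receptors, read 456, 410 and 1251 in the controls, 1210, 1082 and 849 in hepatitis, 856, 747 and 764 in cirrhosis, and 1209, 656 and 802 in HCC. All 6 were highest among the controls in replicate 3. The arrays share that outlying control, so these values are a description of likeness.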

How the data were processed

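The authors deposited linear array intensity values, 1 per probe set and array, with nearly equal quartiles on all arrays. Per the submitters' processing notes MAS5 and RMA were used, and the sources used here give neither their role nor a version. Of 31099 probe sets 57 were array controls, 20826 named 1 gene, 436 several and 9780 none. Names came from the platform annotation, with 1 symbol updated from RefSeq (GRCr8). The brightest probe set over the 12 arrays stood for each of 14217 genes.

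Values were tested as log2(intensity + 16) with limma 3.58.1 in R 4.3.3 (lmFit, eBayes) in 1 fit of 4 group means, with Benjamini-Hochberg adjustment over all genes and a call at adjusted p under 0.05. A second fit covered all probe sets. The scripts were tested on simulated data. Precision is limited by the 3 arrays per group. The labels name no pairing by replicate number, and the main fit used none. Deviations of same-numbered samples had correlations of -0.252 to 0.365. Different-numbered samples were not compared in this way, so these values cannot decide on pairing.

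The members and the 14 gene lists were chosen with earlier results of these data known. Named genes were all members, up to 4 called genes per list and comparison by size of difference, and the 6 genes most like the chains. Genes named for control replicate 3 and single cell markers (Ms4a1, Cd79b, Cd4, Gzmb, Csf1r, Adgre1, Marchf1, Ifi30, Ifng) were chosen after their values were seen. So were RT1-CE10, RT1-T24-4 and the genes set beside them by likeness. Promoters were read from RefSeq tables.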

Additional observations from a re-analysis of the deposited data

Results flagged for a closer look

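Ctss differed between HCC and hepatitis by a test of the difference itself, a call that was lost in 13 of the alternatives. Its log2 difference from control was -0.66 ± 0.42 in HCC and 0.59 ± 0.42 in hepatitis, and HCC lay at -1.26 ± 0.42 from hepatitis (limma adjusted p = 0.04225), with 3 of 3 HCC arrays below all hepatitis arrays. In the fit of all probe sets it missed the threshold (adjusted p = 0.05138), and with the replicate block too (adjusted p = 0.06695). The RNA quality measure of the HCC arrays given above moves with this result, and its part was not tested.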

How the results depend on the processing

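Over the alternatives, 1104 of the values of single members kept their side of the threshold, 17 passed it only under the alternative and 13 no longer passed. None changed sign as called values. Values that were not called could change sign and still count among the 1104. Ciita in hepatitis against control, for example, was at -0.10 with all arrays and at 0.55 without control replicate 3. The count of members called in HCC against hepatitis was 1 and became 0 with a pseudocount of 64, quantile normalization, only the groups compared, array weights and the replicate block (Ctss adjusted p = 0.06695 there). HCC against control had 1 call with quantile normalization, Cd74 at 1.61, and cirrhosis against control 1 with array weights, RT1-Da at 1.32, where both were 0. When arrays were left out 1 at a time, the counts ranged from 0 to 4 in hepatitis against control, 0 to 3 in cirrhosis against control, 0 to 5 in HCC against control, 0 to 2 in HCC against cirrhosis, 0 to 1 in HCC against hepatitis and 0 to 6 in the test over all groups, and the upper ends came from leaving out control replicate 3, except in HCC against hepatitis. Leaving out HCC replicate 1 gave 1 call in HCC against cirrhosis, Ctss at -1.29. The labels name no pairing by replicate number, and the replicate block changed no other count. A pseudocount of 1, leaving out the dimmest 30% of genes, the mean of all probe sets and the trend and robust options changed no count. The causes were not tested.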
